A study of Bos taurus with 12 samples.

Results

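KDM5B overexpression in cloned cattle embryos was examined by comparing 2 groups of Holstein embryos at the 8-cell stage. Both were clones made by somatic cell nuclear transfer (SCNT), a method that moves a body cell's nucleus into an egg stripped of its own, and one of them also overexpressed KDM5B. Each group had 3 libraries, 6 of the 12 in the series, and each library came from a pool of 8 embryos. How KDM5B was delivered, and from which cell line the donor nuclei came, is not stated in the labels. Embryos made by in vitro fertilisation (IVF) and fetal fibroblasts, with 3 libraries each, were used to describe where loci stood outside the comparison. The IVF mean was also set against the SCNT mean, to give a spread beside that between the clone groups.

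The deposited table held 1 value per locus and group, in FPKM (sequenced fragments per kilobase of a transcript's length, scaled to the mapped total of a library), which the values show to be means of 3 libraries. No replicate values exist, so no difference below has a replicate check, an SD or a test, and a mean does not show whether 1 library or all 3 carry a value. Library depth is unknown, because FPKM means keep no read totals. Loci entered the comparison when they reached 1 FPKM in either clone group. This held for 12607 of the 22445 loci in the table, made up of 10108 loci with Ensembl gene IDs and 2499 named by the authors themselves (here, the authors' own loci). The table does not pair IDs with gene names, and 0 of its IDs could be matched to a name, so the KDM5B transcript, gene lists and markers of embryo, fibroblast or cumulus cells were not analysed here.

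KDM5B is a histone demethylase that takes methyl groups off histone H3 at lysine 4. Methylation at this residue marks promoters of active genes, and marks carried over from the donor cell are regarded as one obstacle to reprogramming after nuclear transfer. In cattle, the embryo's own genome becomes broadly active around the 8-cell stage, so the RNA of these embryos is a mix of stored egg transcripts and new ones.

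The group means of KDM5B embryos lay slightly above those of SCNT embryos for most loci. Of the 12607 loci, 8109 (64.3%) were higher with KDM5B, 4491 were lower and 7 were equal. The median difference, KDM5B minus SCNT on the log2(FPKM + 1) scale, was 0.21, with quartiles of -0.16 and 0.57. The 5th and 95th percentiles were -0.73 and 1.13. The median level of these loci was 5.58 FPKM in SCNT and 6.85 FPKM with KDM5B.

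Few loci lay far apart. At least 2-fold differences on this scale were seen for 1227 loci (9.73%), with 959 higher (7.61%) and 268 lower (2.13%) with KDM5B. Differences of at least 4-fold were seen for 61 loci (0.484%), 40 higher (0.317%) and 21 lower (0.167%). After each difference was centred on the median of 0.21, 503 loci were higher by 2-fold or more (3.99%) and 515 were lower (4.09%). Centring moved the share of higher loci among those 2-fold apart from 78.2% to 49.4%. Centring on the median balances the loci above and below 0 by construction. It thus favours a balance past 2-fold without fixing it. The centred 4-fold counts were 24 higher (0.19%) and 37 lower (0.293%). Over the same loci, the SCNT mean differed 2-fold or more from the IVF mean for 7359 (58.4%), with an interquartile range of 2.45 against 0.73 between the clone groups. These comparisons share the SCNT column, the loci were chosen by the clone columns, and the difference between them was not tested.

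**Figure D1:**
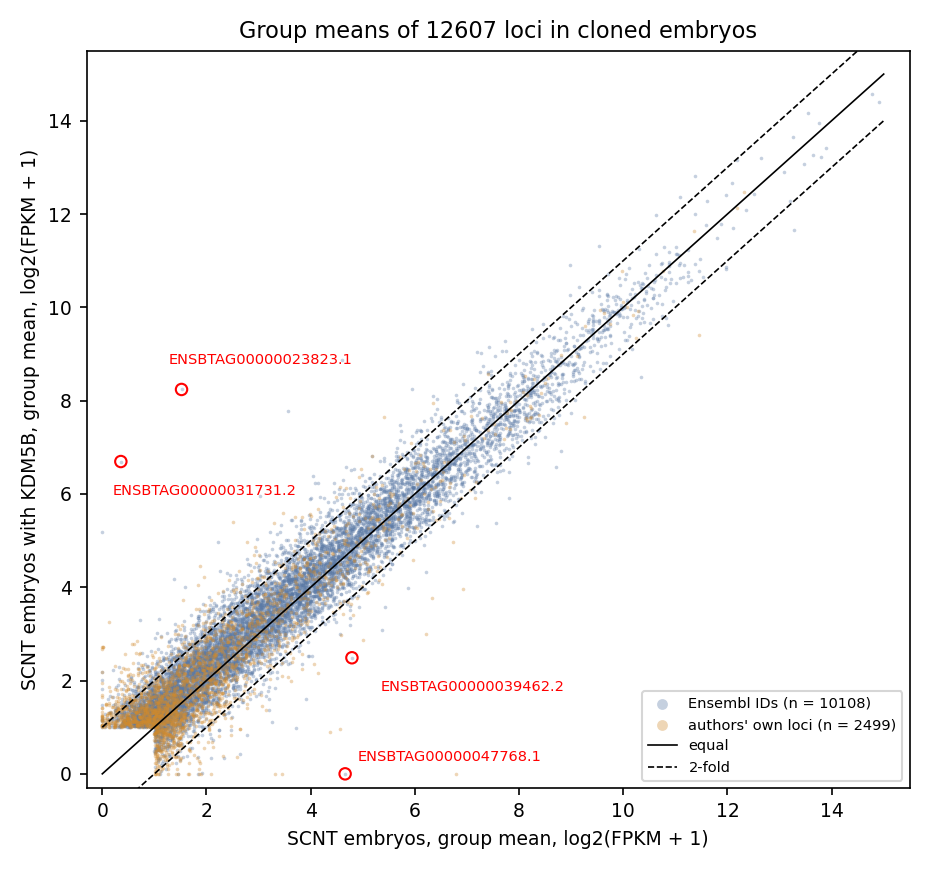
Group means of 12607 loci in SCNT embryos (x axis) and SCNT embryos with KDM5B (y axis), both as log2(FPKM + 1), with Ensembl IDs in blue and the authors' own loci in orange. Most points lie between the dashed 2-fold lines, 959 loci lie on or above the upper line and 268 on or below the lower one, and the 4 named IDs are circled in red.

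The shift depended on the expression level. Loci were classed by the mean of both clone columns on the log2(FPKM + 1) scale, with limits at the levels of 2, 5, 20, 100 and 1000 FPKM. The median difference was 0.29 in the 3156 loci under 2 FPKM and 0.27 in the 2644 loci from 2 to 5. It was 0.22 in the 3262 loci from 5 to 20 and 0.12 in the 2355 loci from 20 to 100. In the 1043 loci from 100 to 1000 it was -0.01, and in the 147 loci of 1000 and over it was -0.06. Thus low and middle loci lay higher with KDM5B, and the classes above 100 FPKM had medians close to 0. The share of loci above 0 followed the same order, from 69.1% in the lowest class to 44.9% in the highest.

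On the log2(FPKM + 1) scale, which understates differences of low loci, the width of the differences changed less than their centre. The interquartile range was 0.74 in the lowest class, 0.73 from 5 to 20 FPKM and 0.65 in the highest. The share of loci at least 2-fold higher was 8.56% in the lowest class, 8.52% from 5 to 20 FPKM, 4.31% from 100 to 1000 and 3.40% at 1000 and over. The share at least 2-fold lower was 2.34%, 1.84%, 2.68% and 4.08% in those same classes. Centred on the overall median, the top class held 4 loci past 2-fold upward (2.72%) and 12 downward (8.16%). The class from 5 to 20 FPKM held 156 (4.78%) and 104 (3.19%), beside 3.99% and 4.09% of all loci.

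**Figure D2:**
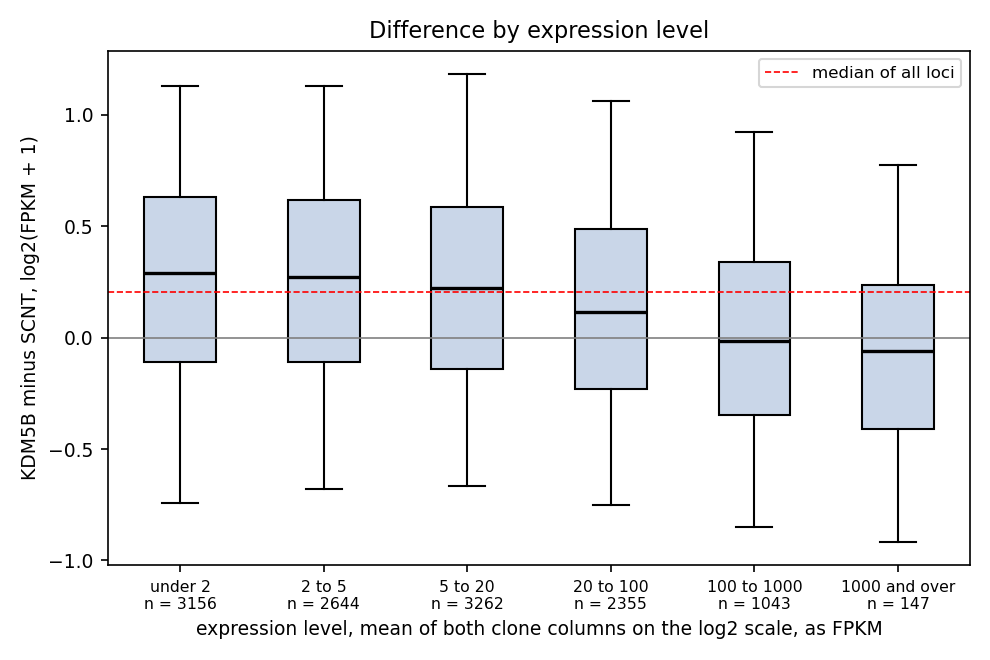
Difference between the clone groups, KDM5B minus SCNT on the log2(FPKM + 1) scale (y axis), in 6 classes of expression level (x axis). Boxes span the quartiles over loci, lines mark the median and whiskers the 5th and 95th percentiles; medians go from 0.29 in the lowest class to -0.06 in the highest, around the dashed overall median of 0.21.

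The balance of summed FPKM ran the other way at the top of the range. The whole columns summed to 885032 FPKM in SCNT and 887410 with KDM5B, a difference of 2378. The 147 loci of the top class summed to 429911 FPKM in SCNT and 408350 with KDM5B, a net change of -5.02%, the sum of gains of 53559 FPKM and losses of -75120 FPKM. Few loci held much of both. The 10 largest losses came to -42866 FPKM and the 10 largest gains to 33045. Taking out only the 10 largest losses, which can only raise the sum, left the class with a gain of 21305 FPKM. Without both sets of 10 its net was -11740 FPKM. The 12460 loci below that class gained 23492 FPKM in sum. The gain was 9538 FPKM (9.18%) from 20 to 100 FPKM and 1248 FPKM (35.7%) in the class under 2. FPKM are scaled within each library, so a lower sum in abundant loci and higher values elsewhere are not independent of each other.

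**Figure D3:**
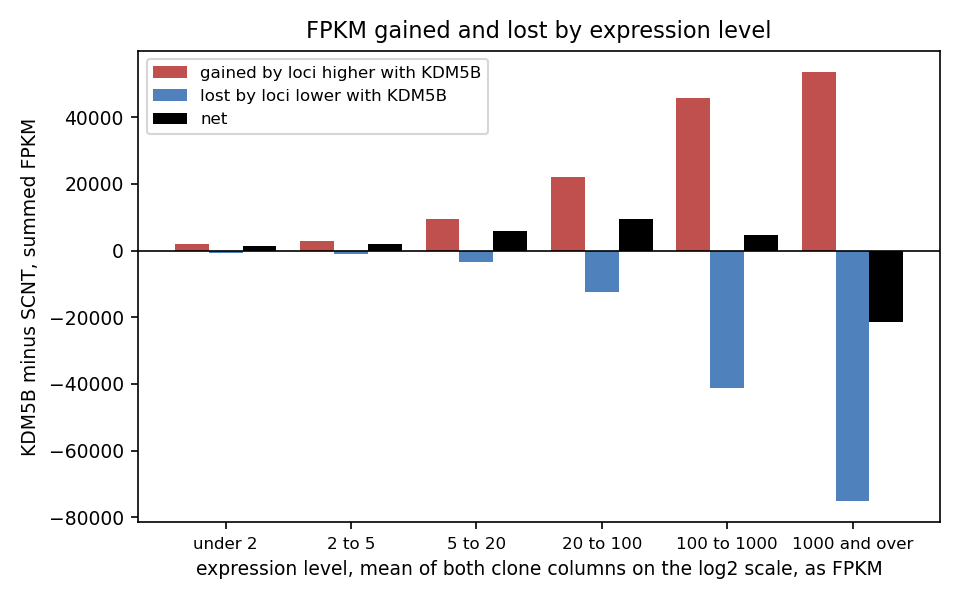
Summed FPKM gained by loci higher with KDM5B (red), lost by loci lower with KDM5B (blue) and their net (black) in each class of expression level, KDM5B minus SCNT. The net is positive in each class below 1000 FPKM and -21561 FPKM in the class of 1000 and over.

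The most abundant transcripts were largely the same in both groups. Of the 10 highest loci in each column 8 were shared, and of the 100 highest 80. The 10 highest loci held 17.8% of the SCNT column and 16.0% of the KDM5B column, and the 100 highest held 42.8% and 40.7%. Among the 10 loci with the highest mean level, all with Ensembl IDs, 7 were lower with KDM5B and 3 were higher. The top locus stood at 28224 FPKM in SCNT and 24476 with KDM5B. The next had 30632 FPKM in SCNT and 21778 with KDM5B, a ratio of 0.711 and the largest loss in FPKM of any locus in the top class. The third had 11906 FPKM in SCNT and 18353 with KDM5B, a ratio of 1.54 and the largest gain. None of these 10 was 2-fold apart.

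Of the 171 loci of 1000 FPKM or more in the higher group, 16 (9.36%) were at least 2-fold apart, a share near the 9.73% of all loci. They lay 8 in each direction as deposited, and after centring 7 were higher and 15 lower. On the higher side, one stood at 2675 FPKM in SCNT and 7232 with KDM5B, another at 2174 and 5296, and the next at 1578 and 4043. All 3 were also abundant in IVF embryos, at 2859, 1275 and 2177 FPKM. On the lower side, one stood at 9976 FPKM in SCNT and 3217 with KDM5B, with 4408 in IVF. One of the authors' own loci was on the same side, with 2819 FPKM in SCNT and 683 with KDM5B. Its IVF value was 12.3 FPKM and its fibroblast value 0.

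Taken over all expression levels, the types of locus had close medians and different widths. The median difference was 0.21 for Ensembl IDs and 0.21 for the authors' own loci, with interquartile ranges of 0.70 and 0.90. The authors' own loci were at least 2-fold apart in 379 of 2499 cases (15.2%), 270 higher and 109 lower. Ensembl IDs were apart in 848 of 10108 cases (8.39%), 689 higher and 159 lower. After centring the authors' own loci counted 157 higher and 190 lower, and Ensembl IDs 346 and 325. As deposited, the authors' own loci made up 19.8% of all loci compared, 28.2% of those 2-fold higher and 40.7% of those 2-fold lower.

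The wider spread of the authors' own loci was also seen within most expression classes. The authors' own loci were the lower expressed, with a median of 1.96 FPKM in SCNT against 7.59 for Ensembl IDs. Within the class under 2 FPKM 15.8% of the authors' own loci and 7.80% of Ensembl IDs were 2-fold apart. From 5 to 20 FPKM the shares were 16.8% and 9.33%, and from 20 to 100 FPKM 17.3% and 7.26%. From 100 to 1000 FPKM they were 8.33% of 48 loci and 6.93% of 995. The medians of the types parted within the lowest classes. Under 2 FPKM the median was 0.25 for the authors' own loci and 0.31 for Ensembl IDs, and from 2 to 5 FPKM 0.17 and 0.30. It was 0.22 for both from 5 to 20 FPKM, then 0.10 and 0.12 from 20 to 100, and -0.03 and -0.01 from 100 to 1000. At 1000 FPKM and over it was -0.02 and -0.07. Among loci of 20 FPKM or more in the higher group, 59 of 296 authors' own loci (19.9%) and 321 of 3616 Ensembl IDs (8.88%) were 2-fold apart, against 9.71% of all 3912. In sum the authors' own loci held 5.98% of the SCNT column and 5.97% of the KDM5B column.

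More loci were detected with KDM5B than without it, beside the median shift of 0.21. In SCNT 11262 loci reached 1 FPKM and with KDM5B 12121 did, and 10776 reached it in both. Only the KDM5B group reached it for 1345 loci, with medians of 0.647 FPKM in SCNT and 1.46 with KDM5B. Only the SCNT group reached it for 486 loci, with medians of 1.33 and 0.665 FPKM. On the log2(FPKM + 1) scale, which understates differences of low loci, 285 of the 1345 and 85 of the 486 were also 2-fold apart. From under 1 FPKM in SCNT, 15 loci reached 5 with KDM5B and 2 reached 20. In the other direction 11 loci of 5 FPKM or more in SCNT were under 1 with KDM5B, 3 of them from 20 or more.

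Loci listed at 0 were also fewer with KDM5B. The SCNT column listed 3430 loci at 0 and the KDM5B column 2151, with 1535 in both. Of the 1895 loci listed at 0 in SCNT alone, 36 reached 1 FPKM with KDM5B, the highest at 35.6 FPKM. Of the 616 loci listed at 0 with KDM5B alone, 18 reached 1 FPKM in SCNT, the highest at 109.7 FPKM. A listing at 0 can be a failed estimate as well as an absent transcript, and read depth, which sets how many low loci are seen, is unknown for either group. Its part in these counts was not tested. At the 1 FPKM limit, the 323 loci with 0.9 to 1 FPKM in the higher group had a median difference of 0.17, and the 294 with 1 to 1.1 FPKM had 0.14. Of the latter 15 (5.10%) were 2-fold apart, which the former could not be on this scale.

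Loci were next classed by their level in IVF embryos, a column that the comparison of clone groups does not use. Loci listed at 0 in IVF were most often apart. Of these 297 loci, 45 (15.2%) were past 2-fold upward with KDM5B and 36 (12.1%) downward. With rising IVF level the lower share went down in each class, to 3.53% of the 1957 loci above 0 and under 1 FPKM, 1.87% from 1 to 5, 1.62% from 5 to 20, 1.33% from 20 to 100, and 13 of the 1082 loci at 100 or more. After centring that order ended at 5 to 20 FPKM, with lower shares of 17.5%, 6.54%, 3.48%, 2.70%, 3.53% and 3.60% from the lowest class to the highest. The higher share was between 6.76% and 8.07% in the classes between 0 and 100 FPKM and 9.43% in the 1082 loci of 100 or more. In that last class 102 loci were higher and 13 lower, and after centring 75 and 39. In the class listed at 0 in IVF, centring gave 25 higher and 52 lower. That class had a median of 1.37 FPKM in SCNT and held 112 Ensembl IDs, of which 23 (20.5%) were higher and 9 (8.04%) lower. Its other 185 loci were the authors' own, with 22 higher and 27 lower, so most of its lower loci were of that type. After centring 15 Ensembl IDs and 37 of the authors' own loci were lower.

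The same was done with the fibroblast column, fetal fibroblasts being the other cell type of the series. The design text places them on another sequencing instrument than the embryos, while the protocol names 1 instrument for all, so in these levels an effect of instrument and one of cell type cannot be told apart. Of the 1362 loci listed at 0 in fibroblasts, 224 (16.4%) were past 2-fold upward with KDM5B and 84 (6.17%) downward. Their median difference was 0.32, against 0.21 over all loci. After centring the counts were 143 and 127. From 1 to 5 FPKM in fibroblasts 4.91% were higher and 1.68% lower, and from 5 to 20 FPKM 5.13% and 1.24%. At 100 FPKM or more in fibroblasts 56 of 623 loci (8.99%) were higher and 15 (2.41%) lower. The class listed at 0 held 769 authors' own loci and 593 Ensembl IDs, and its median level in SCNT was 2.15 FPKM against 5.58 over all loci. Within Ensembl IDs listed at 0 in fibroblasts, 17.9% were higher and 4.55% lower, so the large share of apart loci was also present without the authors' own loci.

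**Figure D4:**
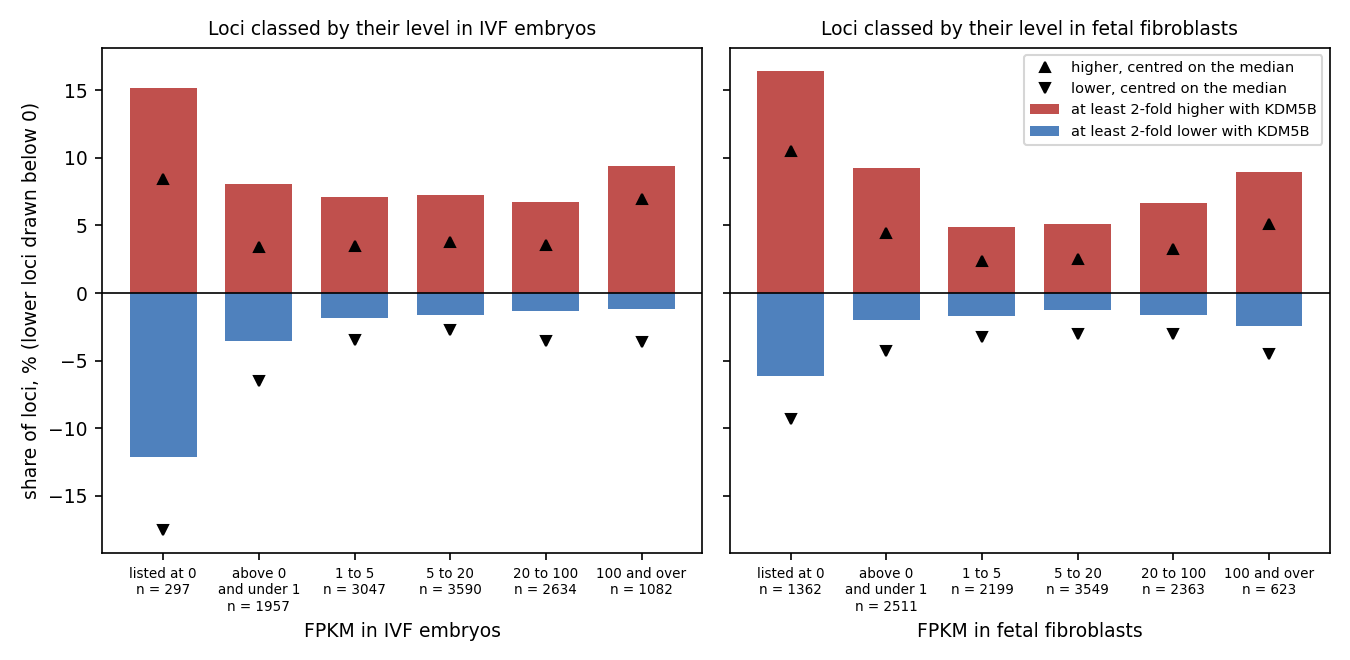
Share of loci at least 2-fold higher (red, above 0) or lower (blue, below 0) with KDM5B, in %, for loci classed by their FPKM in IVF embryos (left) or fetal fibroblasts (right); triangles give the same shares after centring on the median difference. Loci listed at 0 in either column have the tallest bars, 15.2% higher and 12.1% lower for IVF and 16.4% higher and 6.17% lower for fibroblasts.

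Loci were also classed by both columns together. There were 2426 loci that reached 1 FPKM in IVF but not in fibroblasts, and 310 of them (12.8%) were at least 2-fold higher and 51 (2.10%) lower with KDM5B, with a median difference of 0.31. After centring 191 were higher and 92 lower. Of the 7927 loci that reached it in both, 446 (5.63%) were higher and 112 (1.41%) lower, with a median of 0.19. Centred counts in that class were 221 and 243. Of the 807 loci that reached 1 FPKM in fibroblasts only, 57 (7.06%) were higher and 22 (2.73%) lower, and after centring 28 and 37. The share apart in either direction was 14.9% in the first class and 15.8% in the 1447 loci under 1 FPKM in both. Of those 1447, 146 (10.1%) were higher and 83 (5.74%) lower, and after centring 63 and 143. Among Ensembl IDs alone the class of IVF without fibroblasts held 186 higher and 22 lower of 1481. These shares are counts over loci of single group means, and the differences between classes were not tested.

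The loci farthest apart were taken among the 3912 that reached 20 FPKM in the higher group, of which 276 (7.06%) were past 2-fold upward and 104 (2.66%) downward. At the 20 FPKM limit, the 109 loci with 19 to 20 FPKM in the higher group had a median difference of 0.29 and 12.8% were 2-fold apart, and the 117 with 20 to 21 FPKM had 0.12 and 5.98%. The 25 farthest in each direction had differences of 1.89 to 6.72 on the higher side and 1.56 to 6.79 in size on the lower side. ENSBTAG00000023823.1 had the largest positive difference. It stood at 1.87 FPKM in SCNT and 301 with KDM5B, a 161-fold ratio. Fibroblasts held 24.2 FPKM of it, and the IVF column listed it at 0. ENSBTAG00000031731.2 followed, with 0.28 FPKM in SCNT, 103 with KDM5B and a ratio of 366. It was at 0 in the remaining groups. Both were below the SCNT median of 5.58 FPKM of the loci compared. Low SCNT values and abundance with KDM5B follow in part from how these loci were picked.

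The next 3 on the higher side also stood apart from the rest. One Ensembl locus was listed at 0 in SCNT and at 35.6 FPKM with KDM5B, with 5.88 in IVF. Another stood at 23.1 FPKM in SCNT and 465 with KDM5B, a ratio of 20.1, with 2.37 in IVF and 23.9 in fibroblasts. The fifth went from 10.8 to 219 FPKM, 20.3 times as much, with 26.6 in IVF and 0.09 in fibroblasts. After these, ratios were 8.74 or less.

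On the lower side the first was one of the authors' own loci, at 109.7 FPKM in SCNT and listed at 0 with KDM5B and in IVF, with 0.0533 FPKM in fibroblasts. ENSBTAG00000047768.1 came next, at 24.3 FPKM in SCNT and listed at 0 with KDM5B and in IVF, while fibroblasts held 79.6 FPKM. ENSBTAG00000039462.2 was the next Ensembl ID, at 26.7 FPKM in SCNT and 4.61 with KDM5B, a ratio of 5.79, with 0.967 in IVF and 9.31 in fibroblasts. The loci ranked between these IDs were the authors' own, with 22.8 to 120.0 FPKM in SCNT and 0.937 to 14.7 with KDM5B. As deposited, 5 of the 3616 abundant Ensembl IDs were at least 4-fold lower and 12 higher, beside 0.167% and 0.317% of all loci compared. After centring 12 were lower and 9 higher, beside 0.293% and 0.19% of all loci compared.

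The sets of 25 differed in their levels in the other columns. On the higher side the median was 9.82 FPKM in SCNT, 59.2 with KDM5B, 112 in IVF and 0 in fibroblasts. Of these 25, 13 reached 100 FPKM in IVF and 18 were under 1 FPKM in fibroblasts. On the lower side the median was 79.0 FPKM in SCNT, 14.7 with KDM5B, 6.29 in IVF and 6.02 in fibroblasts, with 3 that reached 100 FPKM in IVF and 8 under 1 FPKM in fibroblasts. Among all 3912 abundant loci 26.9% reached 100 FPKM in IVF and 12.4% were under 1 FPKM in fibroblasts. The authors' own made up 7.57% of them, against 7 of 25 on the higher and 10 of 25 on the lower side. Some of the 7 carry neighbouring or close numbers, so they may not be independent examples. Loci picked for a large difference upward tend to be low in SCNT and those picked downward tend to be high there, so these medians are given as a description of the picked loci.

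**Figure D5:**
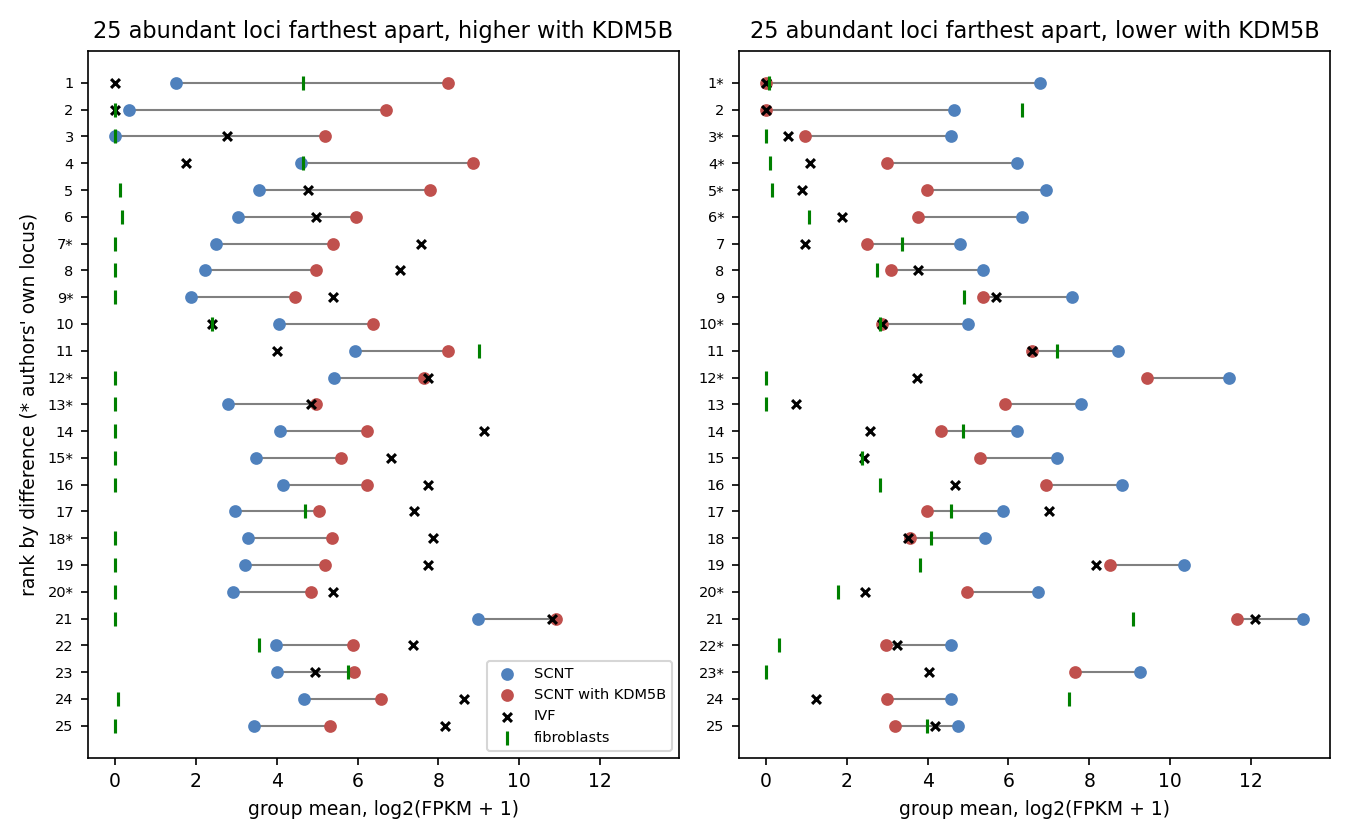
Group means on the log2(FPKM + 1) scale for the 25 abundant loci farthest apart upward (left) and downward (right), ranked by difference, with SCNT in blue, SCNT with KDM5B in red, IVF as crosses and fibroblasts as green bars; asterisks mark the authors' own loci. On the left 18 loci have fibroblast values under 1 FPKM, against 8 on the right.

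The abundant loci 2-fold apart, which include these extremes, were described in the same way. Of the 276 higher loci 95 (34.4%) were under 1 FPKM in fibroblasts, and of the 104 lower loci 20 (19.2%), beside 12.4% of all 3912. At 20 FPKM or more in IVF stood 184 of the higher loci (66.7%), 41 of the lower loci (39.4%) and 66.5% of all 3912, so the higher loci lay at the share of all abundant loci and the lower loci below it. After centring, 71 of 175 higher loci (40.6%) and 31 of 217 lower loci (14.3%) were under 1 FPKM in fibroblasts, and 116 (66.3%) and 114 (52.5%) stood at 20 FPKM or more in IVF. The loci entered these sets through their higher column, and the differences between the shares were not tested.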

How the data were processed

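The authors deposited 1 table of FPKM with 1 column per group; groups follow the sample titles, since the fibroblasts' group label names SCNT embryos. Multiplied by 300, at least 99.9955% of each column's values came within 0.001 of a whole number, as means of 3 libraries rounded to 0.01 would. RSEM 1.2.12, Bowtie2 2.2.5, StringTie 1.0.4, HISAT 0.1.6, bcl2fastq 2.16 and the build UMD3.1 appear, without roles, in the submitters' processing notes. Annotation and filters: not given in the sources used here. Per the labels' protocols, cDNA was made from embryo lysates and amplified, which can distort low values.

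Loci were kept at 1 FPKM or more in either clone column, and differences were taken of log2(FPKM + 1), a scale that understates differences of low loci. With 1 mean per group no p-value is given. The reference table used for names, with 37063 entries of assembly ARS-UCD2.0, had 0 Ensembl IDs. The IDs named are the 2 Ensembl IDs farthest apart each way among loci of 20 FPKM or more in the higher column. For other loci described without an ID, the choice was made after their values were seen, as were the classes by IVF and fibroblast level limits. Members, limits and lists were chosen with earlier results of these data known. The counting code was tested on a copy of the SCNT column in which loci of 5 FPKM or more were changed 4-fold. No noise was added, so the test does not cover noise or lower loci. Alternatives were other pseudocounts, filters, scalings, locus types and a 4-fold limit. Python 3.11.15, numpy 2.4.6, pandas 2.3.3 and matplotlib 3.10.9 were used.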

Additional observations from a re-analysis of the deposited data

How the results depend on the processing

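The count of 1227 loci 2-fold apart, 9.73% of 12607, depended on the pseudocount. It was 2440 (1913 higher, 527 lower) at a pseudocount of 0.1 and 341 (254 and 87) at 5. At the 4-fold limit it was 61. Filters changed the number of loci compared as well. The count was 787 of 7386 at 5 FPKM or more and 380 of 3912 (9.71%) at 20 FPKM or more. In the authors' own loci only it was 379 of 2499 (15.2%). Without a filter the count stayed at 1227, of 22445 loci. It was 1018 centred, 1349 with columns rescaled to 1000000 and 1005 after quantile normalization. The share of higher loci, 78.2% (Wilson 95% interval 75.8% to 80.4%, over loci, which are not replicates), was 74.5% at pseudocount 5, 72.6% at 20 FPKM or more, 65.6% at 4-fold, 81.2% in Ensembl IDs, 71.2% in the authors' own loci, 53.2% after quantile normalization and 49.4% centred. The overall median of 0.21 was 0.12 at pseudocount 5, 0.0699 without a filter, 0.10 at 20 FPKM or more, 0 when centred by construction and -0.00409 after quantile normalization, which sets both columns to 1 distribution.

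Class medians also moved. At pseudocount 0.1 the class under 2 FPKM had 0.49, with 0.24 for Ensembl IDs and 0.29 for the authors' own loci. At pseudocount 5 the class under 2 FPKM had 0.10 and the class from 2 to 5 FPKM 0.14. Ensembl IDs then had 0.12 and the authors' own loci 0.10. The order of the lowest classes and that of the locus types thus depended on the pseudocount. Centred medians were 0.0833, 0.0645, 0.0179, -0.0890, -0.22 and -0.26 from the lowest to the highest class, -0.000734 for Ensembl IDs and 0.0039 for the authors' own loci. For the class from 20 to 100 FPKM and for Ensembl IDs the sign thus turned. The direction of the 4 named IDs could not turn with the pseudocount, which leaves the larger value larger. Their differences were also far larger than the median taken off by centring. The size of a difference from a value listed at 0 is set by the pseudocount: ENSBTAG00000047768.1 had -4.66 as reported, -7.93 at 0.1 and -2.55 at 5.

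No paired analysis was possible because each group has a single mean with no library numbers. Leaving out libraries could not be run either, and gene list medians needed names. Depth, and so the precision of low values, is unknown.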

Other observations

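The authors' own loci carry numbered IDs, and neighbouring numbers sometimes moved together; where these loci lie in the genome was not analysed here. Of the 270 such loci at least 2-fold higher with KDM5B, 232 had a locus with the next or previous number among those compared, and for 56 (24.1%) that neighbour was 2-fold higher too. Over all 2021 authors' own loci with such a neighbour the share was 15.8%. For loci 2-fold lower it was 7 of 87 (8.05%), against 6.04%. The 2-fold higher loci formed 26 runs of consecutive numbers, holding 56 loci, none longer than 3. Runs of 3 included one at 0.14 to 5.29 FPKM in SCNT, 1.72 to 13.9 with KDM5B and 21.4 to 214 in IVF, and one at 0.437 to 6.61 in SCNT, 3.12 to 30.2 with KDM5B and 27.6 to 71.0 in IVF, with every locus of both listed at 0 in fibroblasts. In 1 other run of 3 all loci had 5.54 FPKM with KDM5B, 0 to 0.00333 in SCNT and 0 in IVF. The longest run of 2-fold lower loci, also of 3, had 0.937 FPKM with KDM5B and 0.453 in IVF at every locus. Its SCNT values were 5.21 to 22.8 FPKM. Its numbers directly precede those of the run at 5.54 FPKM, which moved the other way. Among all 7386 loci of 5 FPKM or more in either clone group, 10 shared both clone values with another locus and 8 shared all 4 columns, so neighbouring numbers may not be independent examples.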
